A study of Mus musculus with 22 samples.

Results

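The distal part of mouse chromosome 14, which begins just past the T-cell receptor alpha and delta genes (Tcra and Tcrd) and runs to the chromosome's end, was followed in thymocyte DNA of 22 mice lacking Atm. It was defined as all array probes on chromosome 14 with a midpoint past a fixed position beyond the receptor genes. The rule gave 6098 probes of the 232626 with a position on the array, or 2.62%. They reach from chr14:49502402 to chr14:119210680 over 69.7 Mb, in the coordinates of the array files, whose genome build was not given in the sources used here. The stretch was selected on the copy loss already seen in its log2 ratios on these arrays, so its own levels and calls are given as a description, with no test.

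Each array set Cy5-labelled DNA of Atm-deficient thymocytes against Cy3-labelled wildtype thymocyte DNA by comparative genomic hybridisation on a mouse whole-genome oligonucleotide array. The groups were 8 Atm-deficient mice with a T-cell lymphoma of the thymus and 14 Atm-deficient mice that were free of visible tumour, 1 array per mouse. All animals were untreated, and both groups share the Atm deficiency, so lymphoma differs from no lymphoma among mutants while wildtype enters only as the Cy3 channel. Strain, age and sex of the mice, and which part of Atm was altered, are not given in the labels. Values below are log2 of the ratio of Atm-deficient to wildtype DNA, on which 0 is the autosomal median of an array. A stretch was called lost at a segment mean of -0.25 or less and gained at 0.25 or more.

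Noise, the SD of a single probe as estimated from differences between neighbouring probes, was 0.15 to 0.37 in lymphoma arrays and 0.13 to 0.55 in no-lymphoma arrays. A probe inside Atm (chr9:53461029-53461088) read 0.95 to 1.32 in the lymphoma arrays. On the no-lymphoma side it read -1.08, -0.72 and -0.63 for the labels mouse 1, 3 and 4, the opposite sign to the lymphomas. The other 11 arrays of that group read 0.08 in mouse 6, 0.44 in mouse 5 and 0.67 to 1.69 in the rest. At 0.08 the probe gives no clear direction for mouse 6. Over autosomal probes, correlations with lymphoma mouse 3 on the arrays labelled no-lymphoma mouse 3, 4 and 9 were -0.44, -0.48 and -0.41. With one another these 3 arrays correlated at 0.82 to 0.87. Yet the array labelled mouse 9 read 1.69 at the Atm probe, the sign of the lymphomas, unlike those labelled 3 and 4. The Atm probe and the correlation thus disagree on mouse 9. The direction of the arrays labelled 1, 3, 4 and 9 is left unsettled here. The difference in level, the loss counts and the calls of Rb1, Klhl1 and Dach1 are given with the sign turned as well. By the labels no array swaps the dyes, and taken so, an effect of dye cannot be told apart from one of genotype.

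Thymocytes cut and rejoin the Tcra and Tcrd genes to make T-cell receptors, and Atm is a kinase that reports broken DNA to the cell and holds such ends for repair. When a cut end is not rejoined in place, the chromosome beyond it can be lost, or joined elsewhere. The DNA distal to Tcra and Tcrd carries, in order, a gene-rich stretch with proteasome, granzyme and mast cell protease genes, the retinoblastoma gene Rb1, and a long gene-poor stretch with neural genes such as Klhl1 and Dach1. Rb1 encodes the protein that holds cells back from DNA replication until E2F factors are released. Dach1 encodes a nuclear factor of the dachshund family, and Klhl1 a kelch-type, actin-binding protein known from neurons.

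The probes below are examples that lie in the same chromosome but read differently in single mice. Each is 1 of the array's 60-base probes, written 5′ to 3′ as deposited. The first set holds the middle probe of Rb1 at chr14:67938127-67938186, of Klhl1 at chr14:90661545-90661604 and of Dach1 at chr14:92327159-92327218.
Rb1: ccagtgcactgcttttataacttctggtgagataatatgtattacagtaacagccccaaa
Klhl1: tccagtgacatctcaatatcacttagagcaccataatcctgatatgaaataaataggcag
Dach1: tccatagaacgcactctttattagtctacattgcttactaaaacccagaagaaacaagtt
In lymphoma mouse 5 the Rb1 probe read -0.21, the Klhl1 probe -1.21 and the Dach1 probe -1.11. This Rb1 probe does not stand for the gene on every array. It read -1.35 in lymphoma mouse 6, where Rb1 averaged -0.84, but only -0.29 in mouse 3, where Rb1 averaged -0.7. In lymphoma mouse 8 it read -0.43, where Rb1 averaged -0.01. The GC contents of the Rb1, Klhl1 and Dach1 probes were alike, at 38.3%, 36.7% and 35.0%. Means were 36.5% over all probes of the stretch and 36.6% over all autosomal probes.

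The second set brackets the ends of 2 lymphoma losses, where 1 probe is inside the lost DNA and the next is outside it, and a change of depth within the loss of no-lymphoma mouse 11. In lymphoma mouse 2 the last lost probe before Rb1 lies in Fndc3a at chr14:67318007-67318066 and read -1.11, and the next lies in Fndc3a at chr14:67326633-67326692 and read -0.04.
Lymphoma mouse 2, last lost: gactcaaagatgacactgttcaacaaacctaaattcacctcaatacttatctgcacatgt
Lymphoma mouse 2, first retained: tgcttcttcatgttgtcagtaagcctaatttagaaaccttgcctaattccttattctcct
In lymphoma mouse 5 the loss before Rb1 ended at chr14:66979389-66979448, which read -1.24, and the next probe at chr14:67008362-67008421 read -0.28. The first of these probes also varied on arrays with no loss call there. It read -1.1 in lymphoma mouse 8, -1.59 in no-lymphoma mouse 7 and 0.86 in no-lymphoma mouse 13, so by itself it does not mark the end.
Lymphoma mouse 5, last lost: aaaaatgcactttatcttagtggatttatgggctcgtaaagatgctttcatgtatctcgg
Lymphoma mouse 5, first retained: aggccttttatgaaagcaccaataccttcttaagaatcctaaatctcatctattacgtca
In no-lymphoma mouse 11, whose loss began at chr14:78980428, the deepest part began between chr14:88703317-88703376, which read -0.6, and chr14:88738427-88738486, which read -1.03.
No-lymphoma mouse 11, last before: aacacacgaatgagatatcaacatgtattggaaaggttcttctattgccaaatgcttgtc
No-lymphoma mouse 11, first of the deepest part: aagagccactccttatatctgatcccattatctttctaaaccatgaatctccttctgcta
A single probe carries the full noise of its array, so the lymphoma ends rest on the medians of 10 probes on each side. These were -0.92 and 0.07 in lymphoma mouse 2 and -1.06 and -0.12 in lymphoma mouse 5. The change of depth in no-lymphoma mouse 11 rests on the segment means given below.

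The level of the whole stretch, the median of its probes, differed widely between mice. It was -0.04, -0.23, -0.91, -0.06, -0.76, -0.88, 0.25 and 0.03 in lymphoma mice 1 to 8, against a lowest of -0.34, a median of -0.09 and a highest of 0.45 over the 14 no-lymphoma arrays. Lymphoma mice 3, 5 and 6 lay below every no-lymphoma array, and the other 5 lymphomas lay within the no-lymphoma range. The group means were -0.33 ± 0.46 in lymphoma and -0.08 ± 0.21 in no lymphoma (SD, n = 8 and 14), a difference of -0.25 that is smaller than the spread among the lymphomas. With the sign of the array labelled no-lymphoma mouse 1 turned, the no-lymphoma mean was -0.15 and the difference -0.18, and with the signs of those labelled 3, 4 and 9 turned they were -0.06 and -0.26. Blocking on scan batch gave -0.14. Within scan batches it was -0.06 in batch 1, -0.45 in batch 3, 0.27 in batch 5 and -0.22 in batch 6, while batches 2 and 4 held only no-lymphoma arrays.

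**Figure D1:**
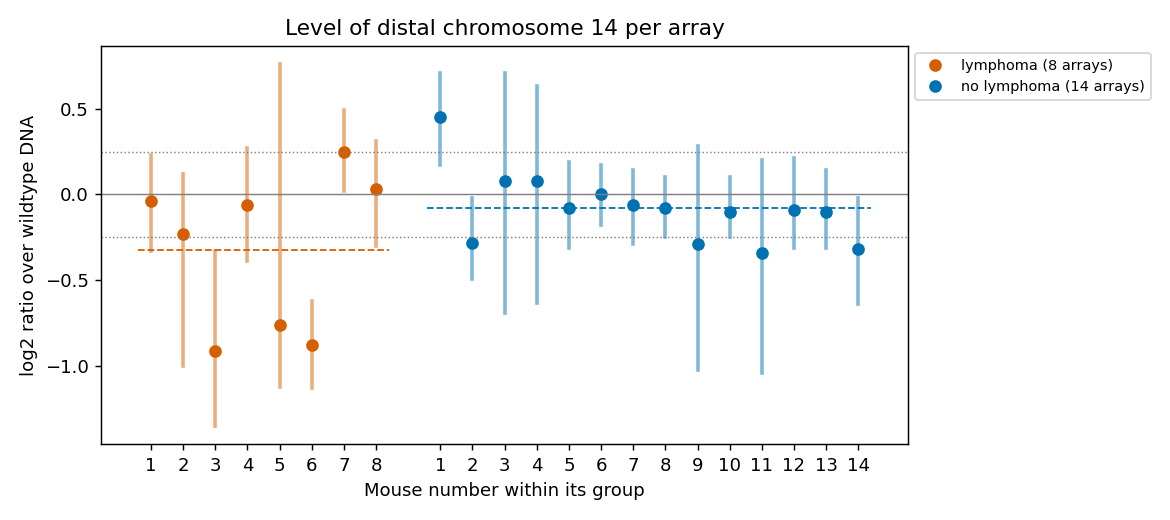
Log2 ratio of Atm-deficient over wildtype DNA over distal chromosome 14 for each array, with lymphoma arrays left of no-lymphoma arrays. Points are medians over the 6098 probes, bars run from the 10th to the 90th percentile of probes, dashed lines are the group means (-0.33 and -0.08) and dotted lines the call limits of 0.25 and -0.25. Lymphoma mice 3, 5 and 6 stand at -0.91, -0.76 and -0.88, and the wide bar of mouse 5 reaches from -1.12 to 0.76.

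Loss was called over 26.7 ± 30.2 Mb in lymphoma arrays and 16.22 ± 27.58 Mb in no-lymphoma arrays (SD, n = 8 and 14), and the spread exceeded the mean in both groups. Lymphoma mice 3 and 6 were called lost over all 69.7 Mb, mouse 5 over 42.7 Mb, mouse 2 over 20.9 Mb and mouse 4 over 10.6 Mb. Lymphoma mice 1, 7 and 8 had no loss call. Among the no-lymphoma arrays, mice 9 and 14 were called lost over all 69.7 Mb, mouse 2 over 46.4 Mb and mouse 11 over 41.3 Mb, and mouse 7 over 0.0283 Mb. The other 9 no-lymphoma arrays had no loss call. The calls in no-lymphoma mice 2, 9 and 14 were near the limit, and the group's mean length depended on the processing. After normexp background correction loss covered 25.3 Mb in lymphoma and 2.61 Mb in no lymphoma, and with a call limit of 0.35 it covered 25.3 Mb in lymphoma and 4.85 Mb in no lymphoma. Normexp also ended the calls of Klhl1 and Dach1 in no-lymphoma mouse 11, so the fall after it is not of near-limit calls alone. The no-lymphoma length was 11.2 Mb with the signs of the arrays labelled 3, 4 and 9 turned and 21.2 Mb with that of mouse 1 turned. With its sign turned, the array labelled no-lymphoma mouse 9 drops out of the lost arrays and the array labelled mouse 1 joins them.

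The losses differed in depth as well as in length. The median of the lost probes was -0.89, -0.91, -0.94 and -0.88 in lymphoma mice 2, 3, 5 and 6, or 0.541, 0.531, 0.522 and 0.544 of the wildtype DNA. It was -0.26 in lymphoma mouse 4, or 0.837 of wildtype. In the no-lymphoma arrays it was -0.32 in mouse 2, -0.94 over 6 probes in mouse 7, -0.29 in mouse 9, -0.79 in mouse 11 and -0.32 in mouse 14. In bulk DNA, a change carried by fewer cells and a smaller change per cell cannot be told apart.

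The same arrays were altered at other sites to a similar depth. The last 2.5 Mb of chromosome 12 read -1.0, -0.95, -1.02 and -0.87 in lymphoma mice 2, 3, 5 and 6, near the level of their loss on chromosome 14. The chromosome 12 end was also at -1.0, -0.92 and -0.91 in lymphoma mice 4, 7 and 8, which had no deep loss on distal chromosome 14, and at -0.38 in mouse 1. Chromosome 14 between 40 and 47 Mb, on the near side of the receptor genes, was at 1.14 to 2.39 in all 8 lymphomas. In no-lymphoma mouse 11 these sites read -0.67 and 1.41, in mouse 14 -0.21 and 0.49, and in mouse 9 -0.31 and 0.83. No-lymphoma mouse 2 read -0.46 at the chromosome 12 end and -0.01 on the near side of the receptor genes. The whole of chromosome 14 before the stretch had a median of 0.37 ± 0.27 in lymphoma and 0.03 ± 0.11 in no lymphoma (SD, n = 8 and 14).

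At the receptor side, the deep lymphoma losses began before the first probe of the stretch, on the side of the Tcra genes, and not within the distal stretch. Going back from that probe, the loss ran without a break to chr14:48980419 in lymphoma mouse 2, to chr14:48987841 in mice 3 and 6, and to chr14:49026549 in mouse 5. These starts lie 522, 515 and 476 kb before the first probe of the stretch. The first 10 probes from them read -3.82, -0.65, -0.98 and -0.85 in lymphoma mice 2, 3, 5 and 6. In mouse 2 this was far deeper than the loss of the stretch, so the call there joins parts of unlike depth. Its segment at -0.7 that enters the stretch began at chr14:49068840. In no-lymphoma mice 9 and 14 the call reached back to chr14:48643290 and chr14:48632851, or 859 and 870 kb. The last 10 probes before the stretch read -0.76 to 0.49 in lymphoma and -0.77 to 0.23 in no lymphoma, and its first 10 probes read -0.78 to 0.46 in lymphoma and -0.3 to 0.34 in no lymphoma.

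Lymphoma mice 3 and 6 lost the whole stretch as 1 unbroken piece. Over the 10th to the 90th percentile of probes, mouse 3 read -1.35 to -0.33 with noise of 0.37, and mouse 6 read -1.13 to -0.62 with noise of 0.17. No island of retained DNA was called in either. Rb1 averaged -0.7 in mouse 3 and -0.84 in mouse 6, Klhl1 -0.84 and -1.02, and Dach1 -1.06 and -0.94.

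Lymphoma mouse 2 kept most of the stretch and lost 2 pieces of it. The first loss covered chr14:49502402-67318066, which is 17.8 Mb with 2035 probes at -0.88. It ended within Fndc3a, a gene for a fibronectin type III domain protein, on the receptor side of Rb1, with a step of 1.0 between the 10 probes on each side. The next 12.5 Mb, chr14:67326633-79870512, was retained at 0.01 and held Rb1, which averaged 0.17. A second loss at chr14:79889235-82949056 took 3.06 Mb at -1.0, with Diaph3, a formin that builds actin filaments and is needed in cell division, and Tdrd3, a Tudor domain protein that reads methylated arginine. From chr14:82977504 to the chromosome's end the level was -0.12 and no loss was called.

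Lymphoma mouse 5 had a fragmented chromosome 14, with 42 changes of call and 43 pieces. Loss was called in 13 pieces of 42.7 Mb in all, 18 pieces of 13.2 Mb were called neither way, and 12 pieces of 12.9 Mb were gained. The pieces alternated between distinct levels. The lost segments lay between -1.02 and -0.73, or 0.493 to 0.603 of wildtype, and the retained ones between -0.17 and 0.08. Of the gained segments, 9 lay between 0.41 and 0.9 and covered 6.27 Mb, and 13 lay between 1.14 and 3.14 and covered 6.43 Mb. Of the 42 changes, 40 had a step of at least 0.5 between the 10 probes on each side. Fewer changes were called after normexp background correction, with the number given in the last section.

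**Figure D2:**
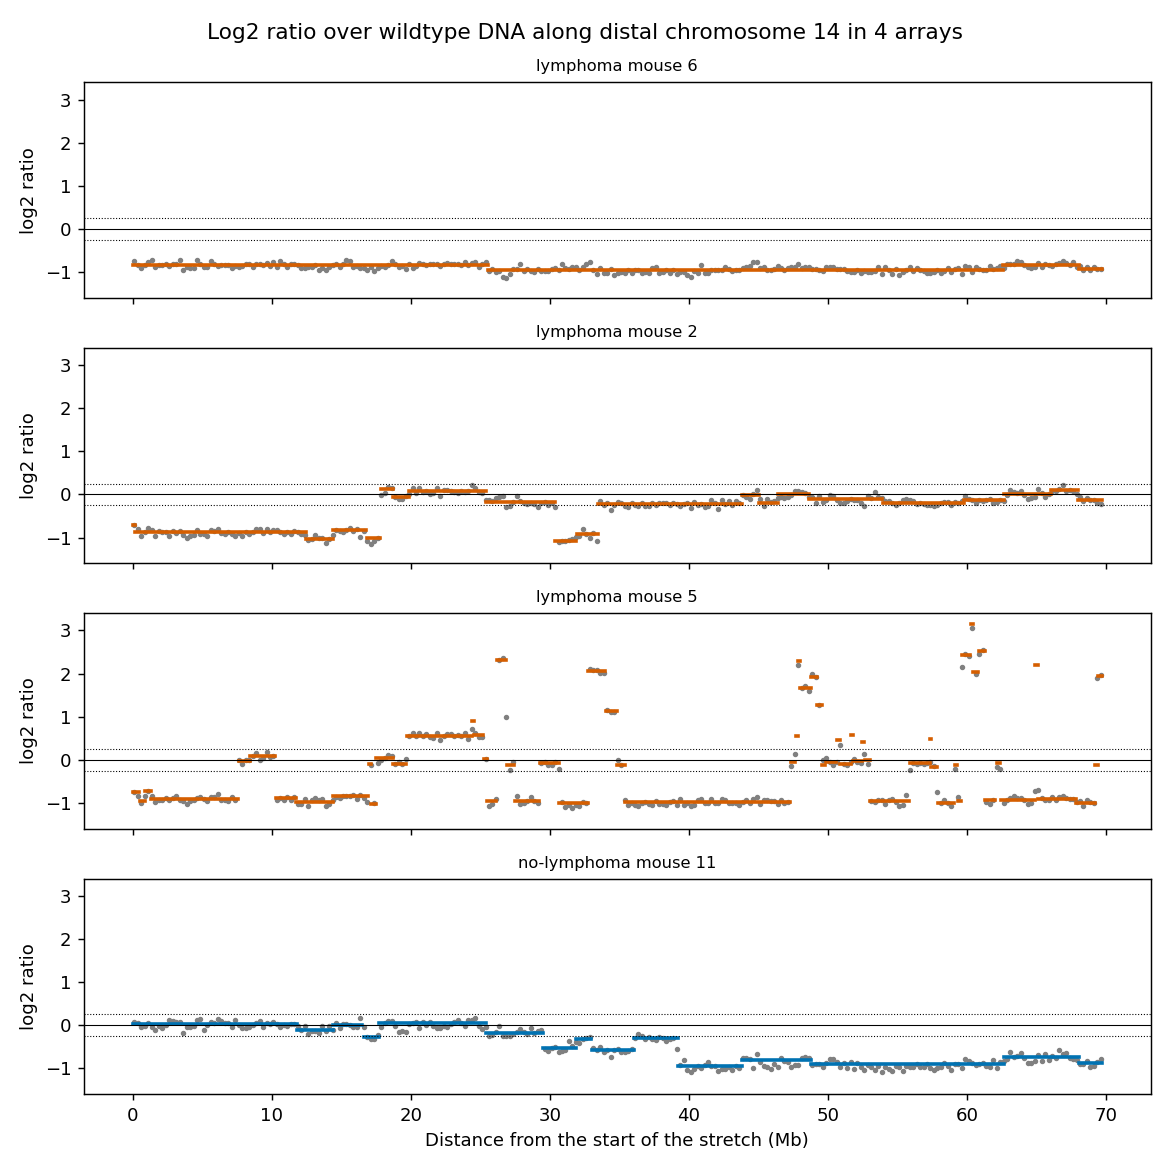
Log2 ratio along distal chromosome 14, against distance in Mb from its first probe, for lymphoma mice 6, 2 and 5, with no-lymphoma mouse 11 at the bottom. Grey points are medians of probes in 0.25 Mb bins and lines are segment means. Mouse 6 is lost throughout, mouse 2 has 2 losses around a retained stretch, mouse 5 steps between lost, retained and gained pieces, and no-lymphoma mouse 11 is lost over its last 40.2 Mb.

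Several retained islands of lymphoma mouse 5 held named genes. The island at chr14:57122698-59770698 was 2.65 Mb long at 0.04 and held Dleu7, Gata4, a zinc finger factor of heart and gut, and Blk, a Src-family kinase known from B cells. The island with Rb1, chr14:67008362-69179357, was 2.17 Mb long and was called neither way. It also held Itm2b, a membrane protein gene, Med4, a subunit of the Mediator complex, Sucla2, an enzyme of the citric acid cycle, and Cysltr2, a leukotriene receptor. Rb1 averaged 0.09 there, between a loss that ended at chr14:66979448 and a gain at chr14:69193449-74706202 of 5.51 Mb at 0.57. A smaller island at chr14:66499865-66641157 held 1 gene with only a clone name, AK015316. Pcdh17, a protocadherin, lay in the island chr14:78758316-80157962 and Slitrk5, a neuronal transmembrane protein, in chr14:105375168-106850767.

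The lost pieces of lymphoma mouse 5 included the 7.61 Mb from the start of the stretch to chr14:57109541, with the granzyme genes, and chr14:59781216-66454463. The longest loss, chr14:84900299-96788782, took 11.9 Mb at -0.99 and held Klhl1 and Dach1, which averaged -1.02 and -1.0. Further losses at chr14:80183833-82251906 held Diaph3, and at chr14:111909847-114397715 held Dct, a melanin-making enzyme, and Hs6st3, a heparan sulfate sulfotransferase.

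The gained pieces of lymphoma mouse 5 reached the highest levels of the stretch in any array. The piece chr14:109140414-110766226, 1.63 Mb with 201 probes, had a median of 2.44 and held most of Gpc5, a glypican, that is, a heparan sulfate proteoglycan of the cell surface. Within it, the segment chr14:109752272-109933493 reached 3.14, or 8.82 times the wildtype DNA. Gpc5 averaged 2.06 in lymphoma mouse 5, against -0.94 to 0.22 in the other 7 lymphomas and -0.88 to 0.48 in no-lymphoma arrays. The piece chr14:97180790-99059958 was at 1.65 and held Mycbp2, a large ubiquitin ligase, Ednrb, an endothelin receptor, and Pou4f1, a neural transcription factor. The pieces chr14:114407219-114573636, with Oxgr1, at 2.3, and chr14:75695681-76379726, with no named gene, at 2.35 were as high. Medians of the gained pieces ranged from 0.36 to 2.44.

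Of these 40 changes in lymphoma mouse 5, 11 fell within a named gene. The genes so split with a symbol were Hmbox1, a homeobox factor, Tdrd3, Gpc5, the related glypican gene Gpc6, with 2 changes, and Fgf14, an intracellular regulator of sodium channels, with 2 changes. Probes in named genes made up 67.9% of the probes of the stretch and 68.1% of the autosomal probes. These are shares of probes and not of length, so the 11 of 40 cannot be set against them. The share of the length within named genes was not computed. At the 40 changes, the gap between the last probe of a piece and the first of the next was 4.74 to 138 kb with a median of 17.6 kb, which bounds how closely an end is placed.

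Of the ends at which the call changed, none with a step of at least 0.5 lay within 100 kb of such an end in another array. A low patch that no-lymphoma mice 7 and 14 share, described below, is not counted, since the call did not change there in mouse 14. The closest pair was at chr14:78748236 in lymphoma mouse 5 and chr14:78973218 in no-lymphoma mouse 11, 215 kb apart. Between lymphomas the closest pairs were chr14:80157962 in mouse 5 and chr14:79870512 in mouse 2, 269 kb apart, and chr14:66979448 in mouse 5 and chr14:67318066 in mouse 2, 310 kb apart. The second of these pairs lies on the receptor side of Rb1 in both mice. Of the probes lost in lymphoma mouse 2, 82.0% were also lost in mouse 5, and these were 48.4% of the probes lost in mouse 5. Of all probes of the stretch, 36.5% were lost in mouse 2 and 61.9% in mouse 5.

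The other 4 lymphomas had shallow or no changes. In lymphoma mouse 4 the loss chr14:82805191-93425618 covered 571 probes at -0.26, just past the call limit, with steps of -0.22 and 0.28 at its ends, and the pieces on either side read 0.01 and -0.1. In lymphoma mouse 7, 8 pieces of 22.3 Mb in all were called gained. All 16 pieces of that array had medians between 0.17 and 0.43, on both sides of the call limit. The noise of 0.16 on that array is the SD of a single probe, while these medians rest on 65 to 1979 probes. The differences between pieces therefore cannot be set against that noise, and the error of the medians was not computed. Lymphoma mouse 8 had 1 gained piece, chr14:74247760-74642614, at 0.32, with Elf1 and Sugt1. Lymphoma mouse 1 had no call at all and a level of -0.04.

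In no-lymphoma mouse 11 the loss spared the first part of the stretch and ran from chr14:78980428 to the chromosome's end over 40.2 Mb with 3109 probes at -0.8. It began next to Pcdh17 with a step of -0.5. Its first part was uneven, with segments at -0.53, -0.33, -0.58 and -0.29, and from chr14:88738427 on the segments read -0.94 to -0.73. Klhl1 averaged -0.88, Dach1 -0.99 and Gpc5 -0.88, while Rb1, before the loss, averaged 0.13. A shallow call at chr14:66123984-67221264 read -0.28. Lymphoma mouse 5 and no-lymphoma mouse 11 shared 53.4% of the probes lost in mouse 5, which were 63.7% of those lost in mouse 11. Over the whole stretch, 61.9% of probes were lost in lymphoma mouse 5 and 51.9% in no-lymphoma mouse 11, so the overlap was close to these shares.

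No-lymphoma mice 2, 9 and 14 had shallow losses. The 2 calls over the whole stretch were at -0.29 in mouse 9, where noise was 0.51, and at -0.32 in mouse 14, where it was 0.25. In mouse 2 the level stayed near the limit, and its 21 pieces were 8 called lost, 9 called neither way and 4 short gains. Among the gains, chr14:112172939-112208130 within Gpc6 had 5 probes at 1.5 and chr14:113327952-113358743 in Dnajc3, a chaperone of the endoplasmic reticulum, had 7 probes at 0.67. On the 21 other arrays the same 5 Gpc6 probes read -1.24 to 0.35.

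The array labelled no-lymphoma mouse 1 was called gained over the whole stretch at 0.45, with its red channel at 0.1 and its green channel at -0.42 relative to quiet autosomes and to the no-lymphoma arrays. On all other arrays the green channel, which by the labels is wildtype DNA, stayed between -0.12 and 0.06. The red channel was at -0.82, -0.65 and -0.76 in lymphoma mice 3, 5 and 6 and at 0.38 in mouse 7. On the array labelled no-lymphoma mouse 1 the chromosome 12 end read 0.49 and chromosome 14 between 40 and 47 Mb read -0.45, the opposite sign to the lymphomas at both sites. With the sign turned, distal chromosome 14 on this array is at -0.45.

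**Figure D3:**
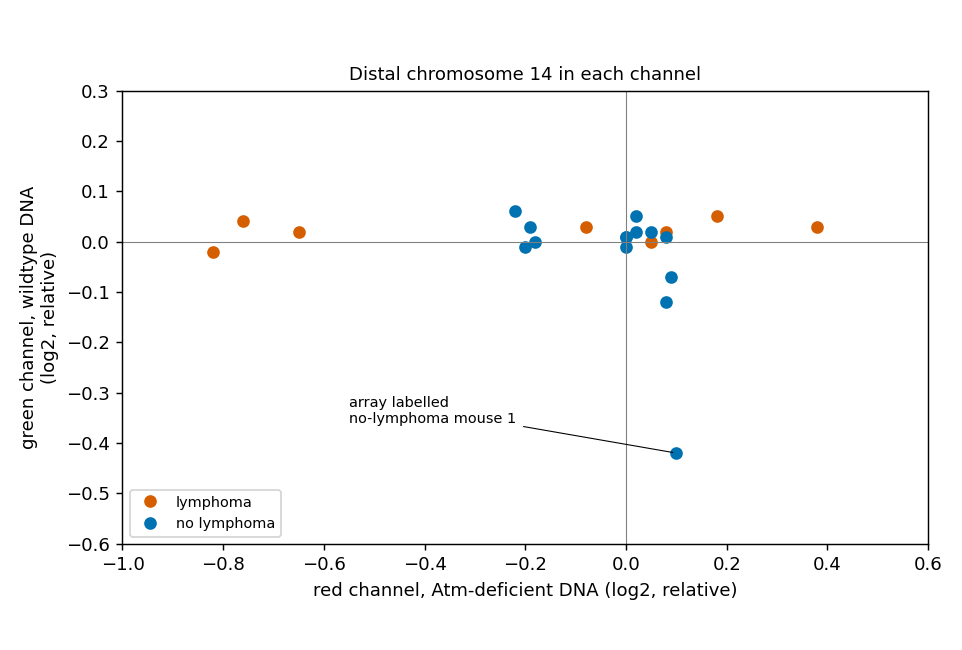
Level of the red channel (Atm-deficient DNA by the labels) against the green channel (wildtype DNA by the labels) over distal chromosome 14 on each array, both in log2 units relative to quiet autosomes and to the median of the no-lymphoma arrays. The array labelled no-lymphoma mouse 1 lies apart at 0.1 in red and -0.42 in green, while lymphoma mice 3, 5 and 6 are low in red alone.

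Rb1, Klhl1 and Dach1 were followed in every array. Rb1 (chr14:67877385-68003906, 23 probes) averaged 0.07, 0.17, -0.7, 0.13, 0.09, -0.84, 0.36 and -0.01 in lymphoma mice 1 to 8, against a lowest of -0.38, a median of -0.05 and a highest of 0.33 in no-lymphoma arrays. It was low in lymphoma mice 3 and 6, and the other 6 lymphomas lay within or above the no-lymphoma range. The means were -0.09 ± 0.44 in lymphoma and -0.05 ± 0.17 in no lymphoma (SD, n = 8 and 14). The difference of -0.04 was 0.04 with scan batch as a block and 0.01 with the sign of the array labelled no-lymphoma mouse 1 turned. Rb1 was called lost in lymphoma mice 3 and 6, as well as no-lymphoma mice 9 and 14. Both no-lymphoma calls ended after normexp background correction and with a call limit of 0.35, while the 2 lymphoma calls stayed. With signs turned, the call in mouse 9 ended and the array labelled no-lymphoma mouse 1 gained one.

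Klhl1 (chr14:90454754-90866100, 54 probes) averaged -0.23, -0.28, -0.84, -0.27, -1.02, -1.02, 0.1 and -0.18 in lymphoma mice 1 to 8, against a lowest of -0.88, a median of -0.15 and a highest of 0.44 in no-lymphoma arrays. Lymphoma mice 5 and 6 lay below every no-lymphoma array. Dach1 (chr14:92139503-92514950, 55 probes) averaged -0.13, -0.18, -1.06, -0.23, -1.0, -0.94, 0.15 and -0.09 in lymphoma mice 1 to 8, against a lowest of -0.99, a median of -0.13 and a highest of 0.47 in no-lymphoma arrays. Lymphoma mice 3 and 5 lay below every no-lymphoma array at Dach1, and the groups overlapped at both genes. Both were called lost in lymphoma mice 3, 4, 5 and 6, as well as no-lymphoma mice 2, 9, 11 and 14. The call in lymphoma mouse 4 ended when ratios were corrected for the number of probes within 1 Mb or for their GC content, after normexp, with a segmentation penalty of 6 and with a call limit of 0.35. Of the 4 no-lymphoma calls, those in mice 2 and 14 were left after normexp and those in mice 2 and 11 with a limit of 0.35. With signs turned, the call in mouse 9 ended and the array labelled no-lymphoma mouse 1 gained one.

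Over the 22 arrays, Dach1 and Klhl1 had a Pearson correlation of 0.97, Rb1 and Dach1 of 0.55 and Rb1 and Klhl1 of 0.6. These describe the arrays, which by the labels share the wildtype channel and the dye orientation. Rb1 differed from both other genes by more than 0.5 in 2 arrays. In lymphoma mouse 5 it stood 1.09 above Dach1 and 1.11 above Klhl1, and in no-lymphoma mouse 11 it stood 1.12 and 1.01 above them.

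**Figure D4:**
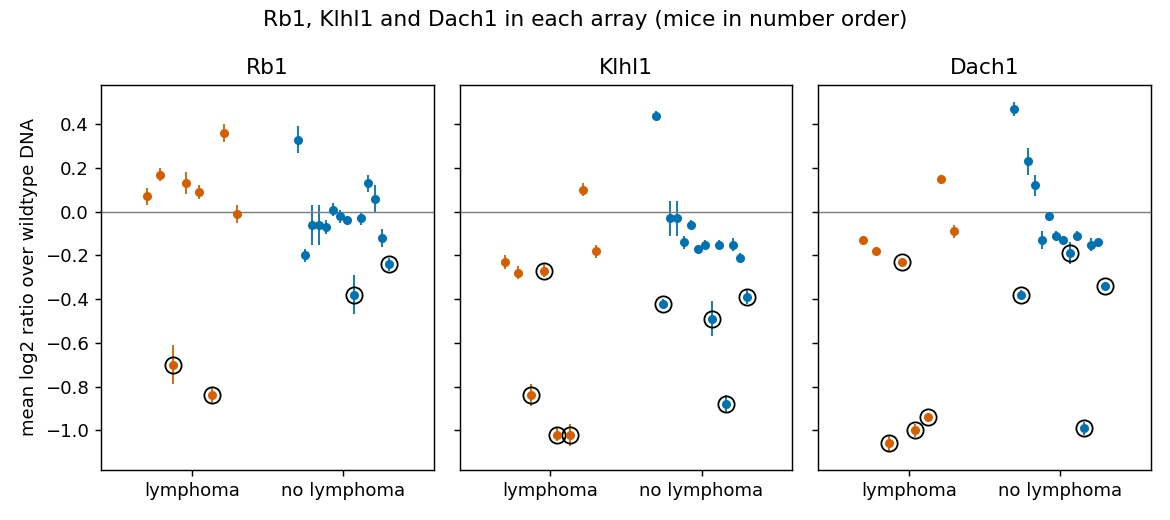
Mean log2 ratio of Rb1, Klhl1 and Dach1 on each array, lymphoma left of no lymphoma. Bars are standard errors over the 23, 54 and 55 probes of the gene, and a black ring marks an array where the gene was called lost. Rb1 is near 0 in lymphoma mouse 5 and no-lymphoma mouse 11 while Klhl1 and Dach1 are at -1.02 to -0.88 there.

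Each probe was called lost in 2 to 4 of the 8 lymphoma arrays and in 2 to 4 of the 14 no-lymphoma arrays. Of the 278 genes with at least 3 probes, 210 (75.5%) were called lost in 3 or more lymphoma arrays, against 2.61% of all such autosomal genes, and 208 (74.8%) in 3 or more no-lymphoma arrays, against 1.93% of all. The stretch was chosen for these calls, so nothing is read from the excess. The no-lymphoma count rests largely on the shallow calls, though normexp also ended the deep calls of no-lymphoma mouse 11 at Klhl1 and Dach1. It was 25 with the signs of the arrays labelled no-lymphoma mouse 3, 4 and 9 turned, 278 with that of mouse 1 turned, 102 with centring on the mode, and 0 after normexp or with a call limit of 0.35, while the lymphoma count stayed at 210 to 214 under all these and the other alternatives run. The counts of single gene lists in no-lymphoma arrays, given below, rest on the same calls. Loss in 4 lymphomas covered 25.3 Mb in 7 runs, 5 of which were lost in mice 2, 3, 5 and 6, such as chr14:49502402-55724507 and chr14:80183833-82251906. The longest run, chr14:84900299-93425618, was lost in mice 3, 4, 5 and 6. At the other extreme, 20.4 Mb in 10 runs was lost in lymphoma mice 3 and 6 alone, among them chr14:67326633-74964830 with Rb1.

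**Figure D5:**
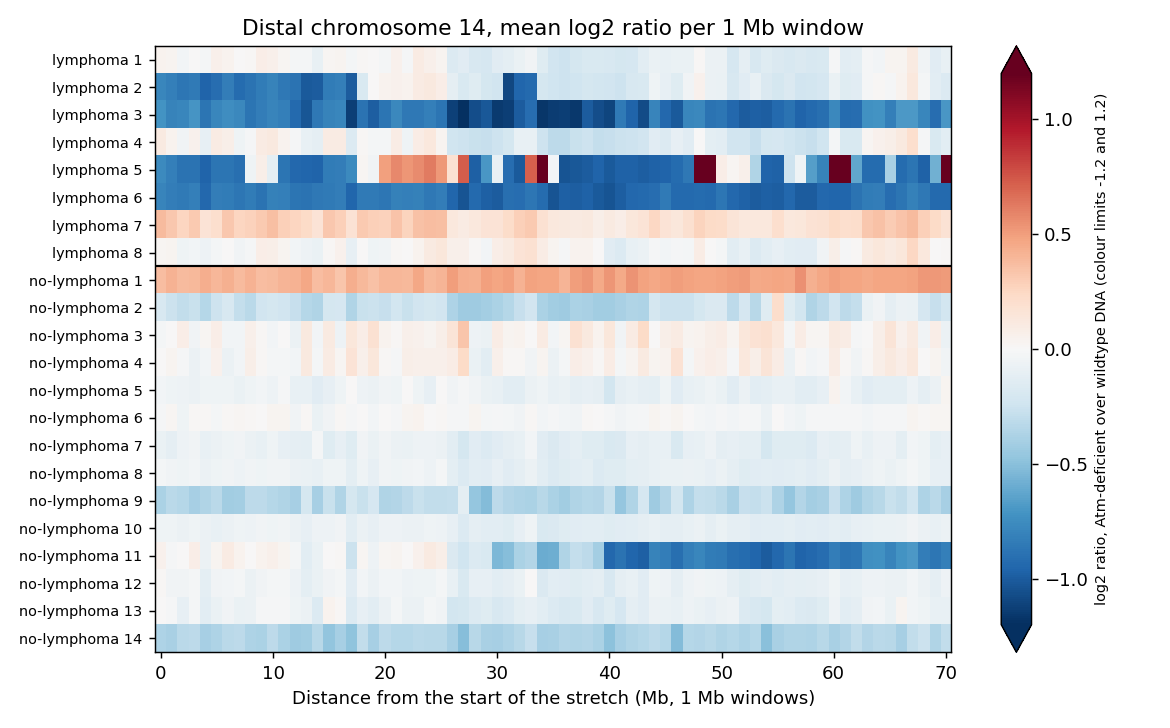
Heat map of the mean log2 ratio in 1 Mb windows of distal chromosome 14 (columns, as distance from its first probe) for each array (rows), lymphoma arrays above no-lymphoma arrays. Lymphoma mice 3 and 6 are low throughout, lymphoma mice 2 and 5 and no-lymphoma mouse 11 in parts, and the array labelled no-lymphoma mouse 1 is high throughout.

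The genes called lost in the most arrays lay together in the gene-poor stretch. They were 8 genes called lost in 8 of 22 arrays, of which AK015575, AY082013 and AK133997 came first by position and Klhl1 and Dach1 were 2 others. Those 8 arrays include lymphoma mouse 4, whose call at -0.26 ended under 5 alternatives, and the highest count over the genes was 5 arrays after normexp and 6 with a call limit of 0.35. The first 3 carry only clone names in the files. AY082013 (chr14:85679039-86305315, 49 probes) averaged -0.48 ± 0.5 in lymphoma and -0.12 ± 0.22 in no lymphoma (SD, n = 8 and 14). The fewest losses, in 4 arrays, were called at 42 genes.

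Levels also followed the spacing of the probes on many arrays. Windows of 1 Mb held 24 to 172 probes, and across 71 windows the mean log2 ratio correlated with the log of the probe number at 0.62 to 0.69 in lymphoma mice 1, 3, 4, 6 and 7. The correlation was 0.6 to 0.69 for no-lymphoma mice 8, 10, 12 and 13. On the array labelled no-lymphoma mouse 1 it was -0.43. In lymphoma mouse 4 the sparse windows averaged -0.2 and the dense ones 0.01, and in lymphoma mouse 1 -0.13 and 0.0. The loss call of lymphoma mouse 4 lies in the sparse part and was not made after the 2 corrections named above.

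Of the genes listed for growth restraint and tumour suppression, 10 of 14 had at least 3 probes in the stretch, and 9 of them were called lost in 3 or more lymphomas and 7 in 3 or more no-lymphoma arrays, beside 75.5% and 74.8% of all 278 genes of the stretch. Rb1 was the exception among lymphomas. The list's median was -0.31 in lymphoma and -0.08 in no lymphoma, and its median difference of -0.28 stands beside -0.23 for all 278 genes of the stretch and 0.05 for all autosomal genes. The lowest in lymphoma was Rhobtb2, a partner of the cullin 3 ubiquitin ligase, at -0.56 ± 0.63 in lymphoma and -0.26 ± 0.46 in no lymphoma. Bnip3l, a receptor for the removal of mitochondria, was at -0.51 ± 0.69 in lymphoma and -0.1 ± 0.25 in no lymphoma (SD, n = 8 and 14).

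Rhobtb2 overlaps a short low patch that 2 no-lymphoma arrays of scan batch 5 share. Its 6 probes at chr14:64430011-64458299 read -0.94 in no-lymphoma mouse 7 and -1.45 in mouse 14, where the stretch as a whole was at -0.06 and -0.32, and -1.07 to 0.4 on the other 20 arrays. On the other arrays of that batch they read -0.23 in lymphoma mouse 8 and -0.32 in no-lymphoma mouse 11. No-lymphoma mouse 13 had a short high patch at chr14:61709735-61735647 in Dpysl2, a protein of growing axons, with 6 probes at 0.79, against -0.99 in mouse 14 and -0.51 in mouse 7.

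Of the lymphocyte and innate immune genes, 10 of 22 had at least 3 probes, and 6 of these were called lost in 3 or more lymphomas and 6 in 3 or more no-lymphoma arrays, beside the stretch-wide 75.5% and 74.8%. Their median was -0.18 in lymphoma and -0.08 in no lymphoma, with a median difference of -0.12. Ptk2b, a focal adhesion-type kinase, averaged -0.39 ± 0.52 in lymphoma and -0.09 ± 0.19 in no lymphoma. Irf9, which carries interferon signals to DNA, averaged -0.37 ± 0.4 in lymphoma and -0.08 ± 0.22 in no lymphoma. Elf1, an ETS factor of lymphocytes, stood at 0.0 ± 0.53 in lymphoma and -0.01 ± 0.14 in no lymphoma (SD, n = 8 and 14 for all 3), and was called lost in 2 lymphomas and gained in 2.

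Granzymes and mast cell proteases, which kill target cells or are stored in mast cell granules, lie together near the start of the stretch. Of 15 listed, 11 were on the array there and 3 had at least 3 probes, all 3 called lost in 4 lymphomas and in 3 no-lymphoma arrays. Of all 278 genes of the stretch, 139 were lost in 4 lymphomas and 74.8% in 3 or more no-lymphoma arrays. Gzmf averaged -0.56 ± 0.54 in lymphoma and -0.18 ± 0.26 in no lymphoma, and Gzmn -0.54 ± 0.53 in lymphoma and -0.14 ± 0.23 in no lymphoma. Mcpt4, a mast cell chymase, averaged -0.4 ± 0.38 in lymphoma and -0.15 ± 0.31 in no lymphoma (SD, n = 8 and 14 for all 3). These genes are near-identical copies of one another in part, so a probe may also bind its neighbours. Their median difference was -0.39.

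Among genes of cell division and genome maintenance, 13 of 16 were measured with at least 3 probes, and 11 were called lost in 3 or more lymphomas and 11 in 3 or more no-lymphoma arrays, where the whole stretch had 75.5% and 74.8%. Their median difference was -0.28. Diaph3 averaged -0.45 ± 0.56 in lymphoma and -0.12 ± 0.2 in no lymphoma, and Cdca2, which brings protein phosphatase 1 to chromatin, -0.44 ± 0.55 in lymphoma and -0.05 ± 0.22 in no lymphoma. Nufip1, a factor in the assembly of small nucleolar RNA particles, averaged -0.03 ± 0.42 in lymphoma and -0.09 ± 0.28 in no lymphoma (SD, n = 8 and 14 for all 3).

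The neural, adhesion and patterning genes were mostly those of the gene-poor part. Of 22 listed, 12 had at least 3 probes, and 6 were called lost in 3 or more lymphomas and 11 in 3 or more no-lymphoma arrays, set against 75.5% and 74.8% over the stretch. Nalcn, a sodium leak channel near the chromosome's end, averaged -0.37 ± 0.48 in lymphoma and -0.15 ± 0.3 in no lymphoma. Gpc5 had the highest mean of the list in lymphoma, at 0.02 ± 0.92, against -0.12 ± 0.3 in no lymphoma (SD, n = 8 and 14 for both), which rests on lymphoma mouse 5.

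Tested with limma over all autosomal genes, 2 of the 278 genes of the stretch (0.719%) were lower in lymphoma at an adjusted p under 0.05, beside 2.51% of all genes. They were AK042598 (chr14:62948533-62975058), known in the files by a clone name, at a difference of -0.47, and Adam28 (chr14:63466008-63512922), a membrane metalloprotease known from lymphocytes, at -0.46, both named after their values were seen. None was higher, beside 6.68% of all genes. The contrast was in view when the stretch was chosen, so these counts are printed and nothing is read from them. At an unadjusted p under 0.05, 77 genes of the stretch (27.7%) were lower and 0 higher, beside 7.71% of all genes lower and 18.4% higher, and these too are printed with nothing read from them. With scan batch as a block the 2 were 0, and with the signs of the arrays labelled no-lymphoma mouse 3, 4 and 9 turned they were 20.

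The microRNA genes of the stretch were chosen after its values were seen, and no probe lies on any of their hairpins, so their own copy number was not measured. The Mir17hg cluster lies between Slitrk5 and Gpc5 in the RefSeq gene order of GRCm38.p6, and its members are known in mouse lymphomas for promoting growth. They have 4 seeds among them, printed in capitals (bases 2 to 8), with miR-17 and miR-20a sharing 1 and both miR-19 forms sharing another, and are shown because they neighbour Gpc5, the gene of the most amplified piece.
miR-17-5p: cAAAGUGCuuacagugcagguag
miR-20a-5p: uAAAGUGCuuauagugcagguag
miR-18a-5p: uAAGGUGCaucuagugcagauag
miR-19a-3p: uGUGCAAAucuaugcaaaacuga
miR-19b-3p: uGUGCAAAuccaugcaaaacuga
miR-92a-3p: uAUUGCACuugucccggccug
In lymphoma mouse 5, Slitrk5 before the cluster averaged -0.1 and Gpc5 after it 2.06. On the array, AK053349, known by a clone name, lies between these genes and averaged 2.22 over 4 probes. The gained piece began at chr14:109140414, before the first Gpc5 probe at chr14:109506516. The cluster's own place between Slitrk5 and Gpc5, within or outside the gained piece, was not measured here.

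Mir15a and Mir16-1, known as a pair that restrains lymphocyte growth, lie between Kcnrg and Dleu7 and share 1 seed.
miR-15a-5p: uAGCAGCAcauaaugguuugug
miR-16-5p: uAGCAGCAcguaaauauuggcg
Dleu7 averaged -0.89, -0.9 and -0.89 in lymphoma mice 2, 3 and 6, against -0.41 to 0.24 in no-lymphoma arrays. Kcnrg, with 2 probes, averaged -0.67, -0.34 and -0.7 in lymphoma mice 2, 3 and 6, within the -0.81 to 0.44 of the no-lymphoma arrays. In lymphoma mouse 5 Kcnrg averaged -0.62 within a lost piece and Dleu7 -0.02 in the next island, so an end of the loss lies between the 2 genes that flank the pair.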

How the data were processed

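Genomic DNA was measured on 22 two-colour arrays. Per the labels' protocols, DNA came from a caesium chloride gradient and was digested with AluI and RsaI before Klenow labelling. The deposited spot intensity was background-subtracted and dye-normalised by Feature Extraction 9.1.3.1 (protocol CGH-v4_91), per the file headers; the submitters' processing notes name version 9.1. The deposited log10 ratio table equalled the scanner files' red over green log10 ratio (largest difference 0), so its scale and direction are known. It was not centred further, and its column medians were 0.00026, -0.00363, -0.0199, 0.00078, -0.00277, 0.00646, -0.00421 and -0.00245 in lymphoma mice 1 to 8. The no-lymphoma labels mouse 1 to 14 had medians of 0, -0.00426, 0.00718, 0.0144, 0, 0.00019, 0.00727, 0.0004, 0.0105, -0.00572, -0.00485, -0.00505, -0.00255 and 0.0164.

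From the processed intensities, log2 ratios were computed, spots with outlier flags left out, spots of a probe averaged and each array centred on its autosomal median, with no loess. Arrays were segmented by optimal partitioning (penalty 3, at least 5 probes a segment, probes limited to 4 noise SD from a running median of 7 probes; Python 3.11.15, numpy 2.4.6, numba 0.67.0). A gene's call is that of the segment over its midpoint. For gene means over at least 3 probes, limma 3.58.1 (R 4.3.3) was used, with Benjamini-Hochberg adjustment over all autosomal genes so measured, and both steps were tested on simulated data. Every mouse has 1 array, so precision is limited by how many arrays there are. Scan batches came from the file headers. Lymphoma mice 1, 3 and 4 shared batch 1 with no-lymphoma mouse 2; lymphoma mice 2 and 5 shared batch 3 with no-lymphoma mice 5 and 6. In batch 5, lymphoma mouse 8 stood beside no-lymphoma mice 7, 11 and 14, and in batch 6, lymphoma mice 6 and 7 beside no-lymphoma mouse 13. Batch 2 (no-lymphoma labels 1, 3 and 4) and batch 4 (no-lymphoma mice 8, 9, 10 and 12) had no lymphoma.

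Of 523 gene names in the stretch, 236 were current symbols in a RefSeq table of GRCm38.p6, 52 matched a synonym and 235 stayed as in the files. That table served for names, gene order and microRNA sequences only. Named are Rb1, Dach1 and Klhl1, the lowest 2 and highest 1 of each gene list by mean over lymphoma arrays, genes at ends and islands, and the first 3 of the genes lost in most arrays. The stretch, its members and all lists were chosen with earlier results of these data known. Alternatives covered centring, background correction, dim spots, GC content, probe density, call limits, segmentation, scan batch and the direction of doubtful arrays. The corrections by GC content or probe number within 1 Mb, and turning the sign of the array labelled no-lymphoma mouse 1 alone, were added after seeing the data.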

Additional observations from a re-analysis of the deposited data

Results flagged for a closer look

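Among 25 measures compared over the 8 lymphomas, 3 had 1 mouse far from the others, with a gap to its nearest neighbour, as a part of the whole range, past Dixon's critical value. Chance flags about 1 in 20 groups, and the stretch was chosen on these values, so the gaps describe the arrays and test nothing. Lymphoma mouse 7 had 44.8% of the probes of distal chromosome 14 called gained, against 19.4% in the next mouse, a gap of 0.567 of the range. Its 16 pieces lay at 0.17 to 0.43, on both sides of the call limit of 0.25. Lymphoma mouse 5 had 42 changes of call, against 15 in the next mouse, a gap of 0.643 of the range. After normexp background correction the changes in lymphoma mouse 5 were fewer. Gpc5 averaged 2.06 in lymphoma mouse 5, against 0.22 in the next, a gap of 0.613 of the range.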

How the results depend on the processing

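Of the main results set against their alternatives, 131 comparisons stayed within the spread or the side of the limit and 14 moved. For single genes, 125 stayed, 8 moved and 2 reversed. The no-lymphoma arrays with more than 50% of the probes called lost numbered 4, against 2 with centring on the mode, 0 after normexp background correction and 0 with a call limit of 0.35. Mean loss was 26.7 Mb in lymphoma and 16.22 Mb in no lymphoma, against 25.3 and 2.61 Mb after normexp and 25.3 and 4.85 Mb with a limit of 0.35. The no-lymphoma arrays with Rb1 called lost numbered 2, against 0 under both, and those with Dach1 or Klhl1 called lost numbered 4, against 2 under both. The changes of call in lymphoma mouse 5 numbered 42, against 23 after normexp. The genes of the stretch lower in lymphoma by limma numbered 2, against 1 with the GC correction over 1 Mb windows, with the density correction and with genes of at least 1 probe. Turning the signs of no-lymphoma arrays 3, 4 and 9 gave 20. They numbered 0 with centring on the mode, without scan batch 2, without no-lymphoma arrays 3, 4 and 9, with the sign turned for scan batch 2 or for the array labelled mouse 1 alone, and with scan batch as a block. The Rb1 difference of -0.04 turned to 0.01 with the sign of the array labelled no-lymphoma mouse 1 turned and to 0.04 with scan batch as a block. The lymphoma arrays with more than 50% lost stayed at 3 under all alternatives but a call limit of 0.2, which added lymphoma mouse 2. The causes were not tested. No paired analysis was possible because the replicate numbers were given in accession order and pair no samples. Probe spacing, with a median of 8201 bp, limits the placing of ends.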
